A study of Homo sapiens with 6 samples.

Results

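Replication-dependent histone genes encode the bulk of the linker histone H1 and of the core histones H2A, H2B, H3 and H4 that package newly made DNA. The genes were chosen by name: each Ensembl identifier of the deposited table was mapped without its version to the current symbol, and protein-coding genes named H1-1 to H1-6, or H2AC, H2BC, H3C or H4C followed by digits, were taken. The rule gave 70 genes, 66 of which have a row among the 33644 genes of the table. H2AC21, H3C2, H3C3 and H3C15 were not analysed here. H2BC12L, a near copy of H2BC12 on chromosome 21, met the rule and was kept.

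The labels describe 6 samples of total RNA taken at day 0, with treatment given as not applicable, 3 from wild-type HEK293T cells and 3 from a derivative of the same line with genotype alt-LAMA3 KO. HEK293T is a human line of embryonic kidney origin. The labels do not say whether the knockout is 1 clone or whether samples of a group are separate cultures, and they do not tie any sample to the table. The table holds a single comparison, without values for single samples and without names for its groups, so that its p-values measure the spread between libraries that are not named, which may be technical. A negative log2 fold change below means lower expression in the numerator group than in the denominator group, and whether either of them is the knockout or the wild type is not known.

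The table did not match the labelled cell type. A mean normalized count from 72.0 upward was listed by the authors' deposited table for 8 of 11 T-cell markers, with CD8A at 27074, and for 0 of 8 HEK293 markers, with KRT8 at 3.42 and NEFL, NEFM and SALL1 at 0. B-cell and myeloid markers reached at most 26.8, with 2 of 5 tested members lower and 1 higher, and the single tested HEK293 marker was not called. Over all tested genes, 14.8% were lower and 14.7% higher at an adjusted p under 0.05 (deposited Wald test). The T-cell markers were themselves lower in the numerator group for 5 of 9 tested members and higher for 0 by the same test. At an unadjusted p under 0.05, 7 T-cell markers were lower and 1 higher. Their level in each group is not known from the table, and their part in the histone results was not tested. The mean normalized count is an average over libraries, and 780 genes had a mean above 0 with a log2 fold change of exactly 0, so the means may span libraries outside the 2 groups.

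As background, these genes lie in clusters, are transcribed mainly in S phase, lack introns in their classical form and end in a stem-loop in place of a poly(A) tail. The stem-loop is bound by SLBP, which directs 3′ cleavage, export, translation and decay of the mRNA. Some members can also give longer, polyadenylated transcripts, which are known above all from cells that are not dividing. In bulk RNA, fewer cells in S phase and less histone mRNA per cell cannot be told apart.

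The stem-loop is shown first because the annotated 3′ end separates the members later on. It was searched in GENCODE 29 transcripts (GRCh38) as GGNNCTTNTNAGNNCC on the transcript strand, within 150 bases after the stop codon, and found in 31 of 70 members, starting 22 to 67 bases after the stop codon. Another 34 members are annotated with no 3′ UTR at all, so that no search was possible there. The 31 hits took 6 forms, and 1 example of each is given, with the 16 bases of stem and loop in capitals and 5 flanking bases on each side. The form of H2AC6 was carried by 17 members of the H2A, H2B and H3 classes, that of H2BC5 by 4, that of H4C8 by 5 and that of H4C15 by 3, the last pair of forms only in H4 genes among these hits. The forms of H3C6 and H2AC11 occurred in 1 member each.
H2AC6 (chr6:26124664-26124689, plus strand): ccaaaGGCTCTTTTCAGAGCCcccct
H2BC5 (chr6:26158582-26158607, plus strand): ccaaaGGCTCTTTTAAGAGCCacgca
H3C6 (chr6:26225591-26225616, plus strand): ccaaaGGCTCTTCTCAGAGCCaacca
H2AC11 (chr6:27133510-27133535, plus strand): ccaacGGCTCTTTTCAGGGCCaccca
H4C8 (chr6:26285126-26285151, minus strand): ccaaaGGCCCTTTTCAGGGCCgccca
H4C15 (chr1:149860764-149860789, minus strand): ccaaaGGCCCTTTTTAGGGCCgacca

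Counts of replication-dependent histone genes were low in the deposited table. The labels' protocols name an mRNA library kit, and mRNA that ends in the stem-loop has no poly(A) tail. How far the libraries captured such mRNA is not known, so low counts need not mean little histone mRNA. Together the 66 genes made up 0.0176% of the summed means, with a median mean normalized count of 11.3, and 13 of them reached 72.0, which is 5 per 1000000 of the summed means. H2AC1, H2BC1 and H3C4 are listed at 0, of which H2AC1 and H2BC1 are testis histones. The whole sequence of H3C4, in stretches of 31 bases, also occurs in transcripts of other genes. Its exon positions overlap those of ENSG00000282988, which had a mean of 18.3. Whether reads of H3C4 were counted there was not tested, so its 0 need not mean that it is silent. A further 20 had a mean of at most 1.97 and no adjusted p, which left 43 tested genes. Since a gene passed this filter by its level, the tested genes are not all members. H4C7 and H4C12, at means of 0.122 and 0.365, had a log2 fold change of exactly 0 with the largest standard error of the table, 4.08.

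The classes differed in how many of their genes were measurable. Counted in means, which are not per length, H2B genes held 35.1% of the histone total, H2A genes 26.6%, H1 genes 17.4%, H4 genes 15.0% and H3 genes 5.94%. The share of genes with an adjusted p was 16 of 19 for H2B, 9 of 16 for H2A, 9 of 15 for H4, 4 of 6 for H1 and 5 of 10 for H3. Within H1, H1-2 alone carried 78.1% of the counts, whereas the top gene carried 40.7% in H3 (H3C6), 33.7% in H4 (H4C15), 32.0% in H2A (H2AC6) and 22.7% in H2B (H2BC12). Per kilobase of annotated exon, the median level was 18.2 in H2B, 14.3 in H1, 14.2 in H2A, 10.7 in H4 and 4.64 in H3. Per kilobase of coding sequence, an alternative added after seeing the data, it was 73.3 in H2B, 35.6 in H4, 16.9 in H2A, 14.3 in H1 and 5.57 in H3, so that H1 and H4 exchanged places while H2B stayed highest and H3 lowest.

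**Figure D1:**
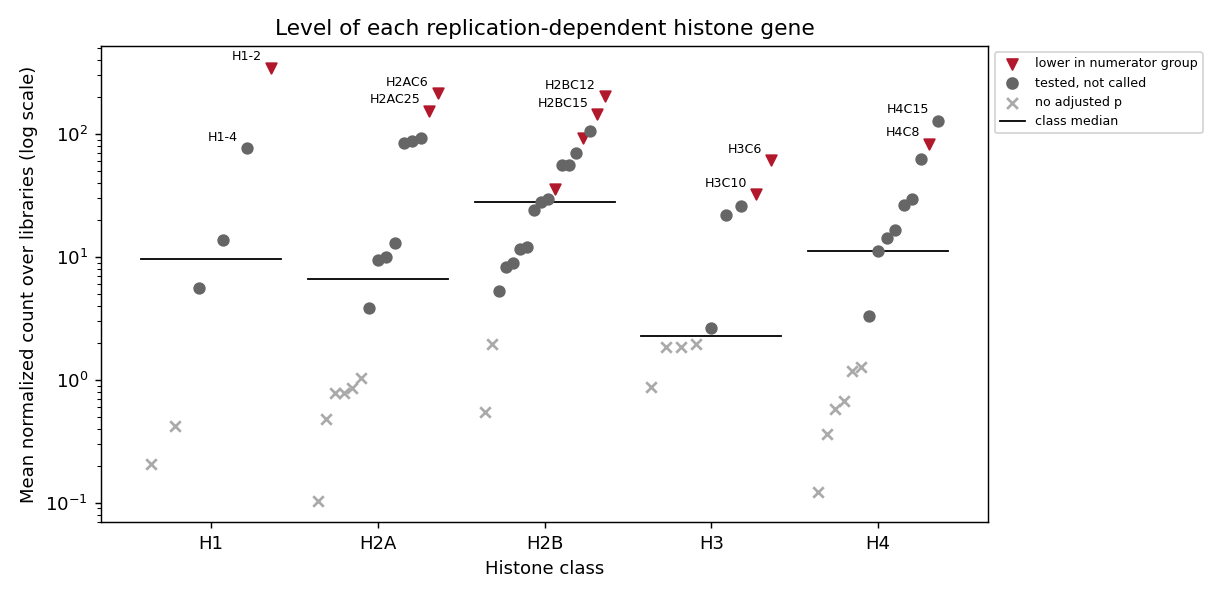
Mean normalized count (log axis) of each replication-dependent histone gene with a mean above 0, by class, with the class median as a line. The top gene is H1-2 at 347, members below about 2 have no adjusted p, and in 4 of the 5 classes the highest gene was called lower in the numerator group.

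Between the groups, 10 of 43 tested histone genes (23.3%) were lower in the numerator group and 0 were higher, by the adjusted p of the authors' deposited Wald test. Over all 13957 tested genes, 14.8% were lower and 14.7% higher. At an unadjusted p under 0.05, 11 histone genes were lower and 0 higher. The median log2 fold change of the 43 genes was -0.53, against 0.00 for all tested genes, and 38 of 43 lay below 0, against 6976 of all 13957. The standard errors were wide: the median was 0.58 for the tested histone genes and 0.26 for all tested genes. Of the 33 genes that were not called, 28 lay below 0, and the 95% interval of 30 of the 33 included a fall to 50% or less.

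**Figure D2:**
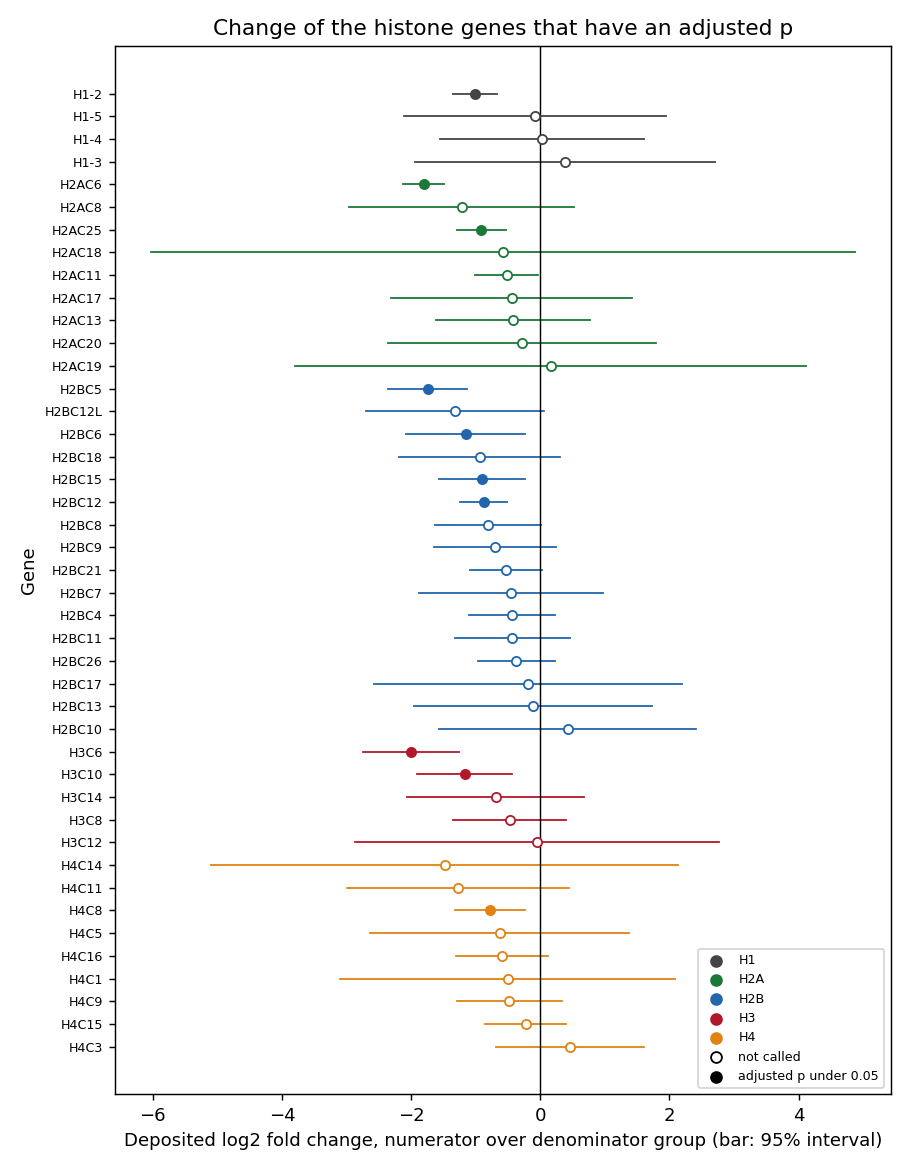
Deposited log2 fold change of the 43 tested genes with its 95% interval, grouped by class and ordered by size. The 10 filled points have an adjusted p under 0.05, all of them left of 0, and among the open points only the interval of H2AC11, from -1.002 to -0.04, does not include 0.

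Linker histones bind DNA where it enters and leaves the nucleosome. H1-2 (ENSG00000187837.3, chr6:26055787-26056428, minus strand) was the most abundant histone gene, with a mean normalized count of 347. It was 2.02-fold lower, with a log2 change of -1.01 and an SE of 0.17 (adjusted p = 4.67e-08, Wald test) in the authors' deposited table. It was the only H1 gene of 4 tested that passed. H1-4, next in level at a mean of 77.0, was at 0.03 (SE 0.81) in the authors' deposited table. That error was 2.46 times the median of the 200 genes closest in mean, so that its interval, -1.55 to 1.61, includes the change of H1-2. In the authors' deposited table, H1-5 was at -0.08 (SE 1.04) and H1-3 at 0.38 (SE 1.18), at means of 13.7 and 5.59. The testis linker histone H1-6, at a mean of 0.206, and H1-1, at 0.422, were not tested.

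Of the H2A genes, 2 of 9 tested were lower. H2AC6 (chr6:26124145-26139116, plus strand) stood at a mean of 216 and a log2 change of -1.81 (SE 0.16, adjusted p = 8.37e-28, Wald test) in the authors' deposited table, 3.50-fold lower and the smallest adjusted p among the histone genes. H2AC25 (chr1:228456979-228457873, minus strand), which lies in a separate small cluster far from the main one, was at -0.92 (SE 0.19, adjusted p = 1.85e-05) with a mean of 155 in the authors' deposited table. H2AC11 was at -0.52 (SE 0.25) with an adjusted p of 0.101 from the deposited Wald test, and was thus called only without adjustment. At the other end, H2AC19 was at 0.16 with an SE of 2.02 and a mean of 93.1 in the authors' deposited table.

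H2B genes had the most tested members, and 4 of 16 were lower. The authors' deposited table gave H2BC12 (chr6:27146418-27146798, minus strand) a mean of 203 and a log2 change of -0.88 (SE 0.19, adjusted p = 2.35e-05, Wald test). H2BC5 (chr6:26158146-26171349, plus strand) had the largest change of the class, -1.74 (SE 0.31, adjusted p = 1.84e-07) at a mean of 92.0 in the authors' deposited table. H2BC15, at -0.90 (SE 0.34) in the authors' deposited table, passed narrowly with an adjusted p of 0.0284 from the Wald test. H2BC6 did so at -1.16 (SE 0.47) in the authors' deposited table, with an adjusted p of 0.0474 from the Wald test. H2BC15 shares exon positions with H2AC15, on the opposite strand, and with H2AC16, on the same strand. Whether the counting used strand is not given in the sources used here, and strand could not separate H2BC15 from H2AC16. H2BC6 shares exon positions with ENSG00000283064. H2BC21, next in level at a mean of 105, was at -0.53 (SE 0.28, adjusted p = 0.158, Wald test) in the authors' deposited table. H2BC10 was the only tested H2B gene above 0, at 0.42 (SE 1.01) and a mean of 5.29 in the authors' deposited table.

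H3 genes had the lowest summed counts, over the 10 of 13 members with a row, and held the largest fall among tested histone genes. H3C6 (chr6:26224199-26227473, plus strand) was at -2.004 (SE 0.38, adjusted p = 1.32e-06, Wald test) in the authors' deposited table, 4.01-fold lower, at a mean of 61.4. H3C10 (chr6:27810064-27811300, plus strand) was at -1.17 (SE 0.37, adjusted p = 0.00783) with a mean of 32.5 in the authors' deposited table. H3C8, at a mean of 26.1, was at -0.47 (SE 0.45), and H3C12, at 2.63, was at -0.05 (SE 1.44) in the authors' deposited table. All 5 tested H3 genes lay below 0, and 2 of the 5 passed.

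Of 9 tested H4 genes, H4C8 (chr6:26277609-26285638, minus strand) alone was lower, at -0.77 (SE 0.28, adjusted p = 0.0215, Wald test) and a mean of 83.5 in the authors' deposited table. H4C15, the most abundant H4 gene at a mean of 128, was at -0.23 (SE 0.32) in the authors' deposited table, and its interval of -0.85 to 0.39 does not reach -1. H4C15 has the same coding sequence as H4C14, so its rank and change depend on how reads were split between these copies. H4C15 also shares exon positions with H3C15, and H4C14 with H3C14, each on the opposite strand. H4C16, the single member on chromosome 12, was at -0.59 (SE 0.36, adjusted p = 0.240, Wald test) at a mean of 62.6 in the authors' deposited table. H4C3 was the only tested H4 gene above 0, at 0.46 (SE 0.58), and H4C14 had the lowest point estimate of the tested H4 genes, -1.48, with an SE of 1.85 in the authors' deposited table. Median log2 fold changes by class were -0.69 in H3, -0.62 in H2B, -0.59 in H4, -0.52 in H2A and -0.02 in H1. The H1 median rests on 4 genes, whose SEs run from 0.17 for H1-2 to 1.18 for H1-3, and weighted by mean normalized count the H1 change was -0.78. Differences between classes in change were not tested.

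**Figure D3:**
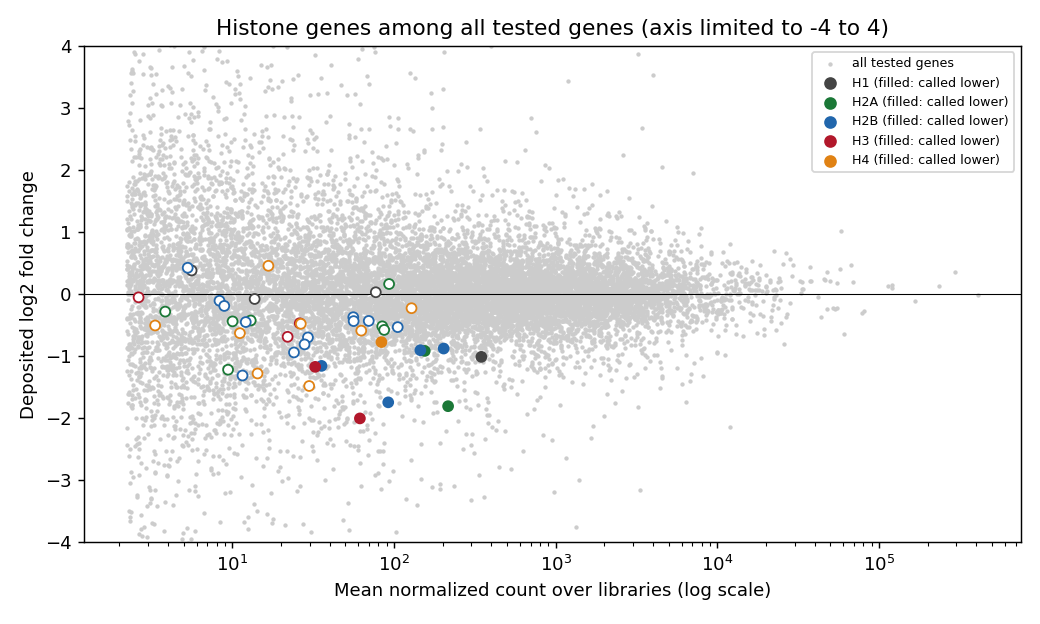
Deposited log2 fold change against mean normalized count (log axis) for all tested genes (grey) and the 43 tested histone genes by class, filled where called lower. The called histone genes have means from 32.5 to 347 and log2 fold changes from -0.77 to -2.004, and few histone genes lie above 0.

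The called genes were the better measured ones. Their median mean normalized count was 119, against 21.9 for the 33 that were not called, and their median standard error was 0.29 against 0.73. Of the 13 histone genes with means from 72.0 upward, 7 were lower, while 23.2% of all tested genes at that level were lower when adjusted among themselves. The 6 others at that level included H1-4, H2AC18 and H2AC19, whose errors were more than 2 times those of genes of like mean.

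Members without an annotated 3′ UTR had the lowest levels. GENCODE 29 gives 34 of the 70 members coding sequence with no 3′ UTR, 11 a longest 3′ UTR of at most 150 bases and 25 a longer one, limits chosen after the data had been seen. Of the 24 long-ended members in the deposited table, all 24 were tested, with a median mean of 56.1, whereas 10 of 31 members without a 3′ UTR were tested, with a median of 1.04 over the 31. Per kilobase of annotated exon the median level was 2.65 without a 3′ UTR, 25.8 with a short one and 24.0 with a long one. In the long-ended group 8 of 24 tested genes were lower and all 24 lay below 0, with a median log2 fold change of -0.69 and a range of -2.004 to -0.23. In the group without a 3′ UTR 2 of 10 were lower, H1-2 and H2BC12, and the median was -0.24. None of 9 passed in the short-ended group by the deposited Wald test, where the median was -0.43. The groups also differed in error, with median standard errors of 0.38, 1.05 and 0.88 in the same order, and the difference between them in change was not tested. Which annotation the authors counted on is not known, and the part of the annotated ends in these levels was not tested.

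**Figure D4:**
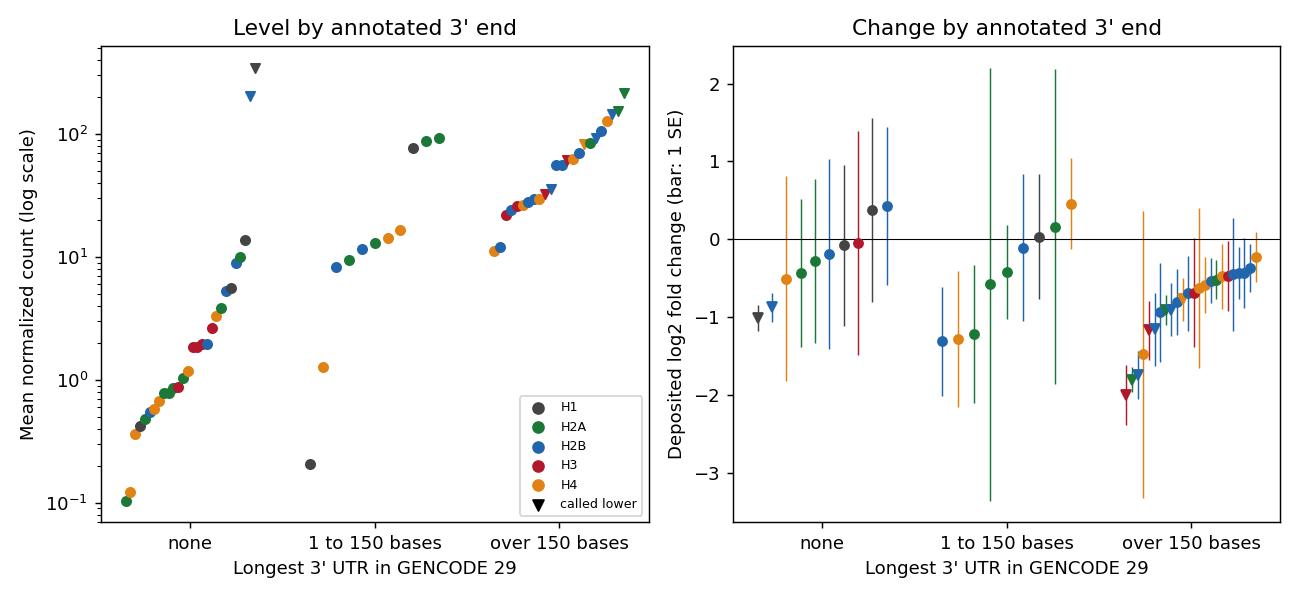
Mean normalized count (left, log axis, genes above 0) and deposited log2 fold change with 1 SE (right, tested genes) by the longest 3′ UTR annotated in GENCODE 29, coloured by class, with triangles for genes called lower. The genes with over 150 bases all have means above 11 and log2 fold changes below 0, while the genes with no 3′ UTR have a median mean of 1.04, with H1-2 and H2BC12 far above it.

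Of the 10 lower genes, 8 have an annotated stem-loop, as have 21 of the 33 tested genes that were not called. All of these have annotated transcript beyond the stem-loop, if only 6 bases in H4C11. The other 2 lower genes, H1-2 and H2BC12, have no annotated 3′ UTR to search, nor have 8 of the 33. These counts therefore cannot show whether the stem-loop separates called from uncalled genes. In transcripts that hold the stem-loop, the longest run past it was 1128 bases in H2AC6, 1862 in H3C6 and 1655 in H4C8. It was 769 in H3C10, 430 in H2BC6, 390 in H2AC25, 377 in H2BC15 and 39 in H2BC5. The longest 3′ UTRs annotated for H2BC15 and H2BC5, 3575 and 384 bases, belong to other transcripts of these genes. Among genes that were not called, H2BC26 has the longest run, 1917 bases, and was at -0.37 (SE 0.30, adjusted p = 0.410, Wald test) in the authors' deposited table. Whether the reads came from stem-loop-ended or longer transcripts cannot be read from counts per gene.

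Near-identical copies limit what a count per gene means in these families. The share of a gene's 31-base words that also occur in transcripts of another gene was at least 50% for 17 of 70 members and under 5% for 28. H2AC18 and H2AC19 have the same coding sequence, as have H3C14 and H3C15, and H4C14 and H4C15, and H4C11 and H4C12. Reads of such pairs can be split between copies in different ways from library to library. The standard errors of H2AC18 and H2AC19 were 9.47 and 6.98 times those of the 200 genes closest in mean, and that of H4C14 was 3.74 times, whereas the median ratio over the 43 tested genes was 1.02. Of the 10 lower genes only H2BC12 shared over 50%, 86.3% of its words. Its near copy H2BC12L shares 100% with other genes and was at -1.31 (SE 0.70, adjusted p = 0.159, Wald test) in the authors' deposited table. The values of H2BC12 are therefore uncertain between the copies, while the other 9 shared 0.746% to 15.4%. The values of H4C15, which was not called and shared 97.2%, are uncertain in the same way. Without the members that share at least 50%, 9 of 32 tested genes were lower.

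**Figure D5:**
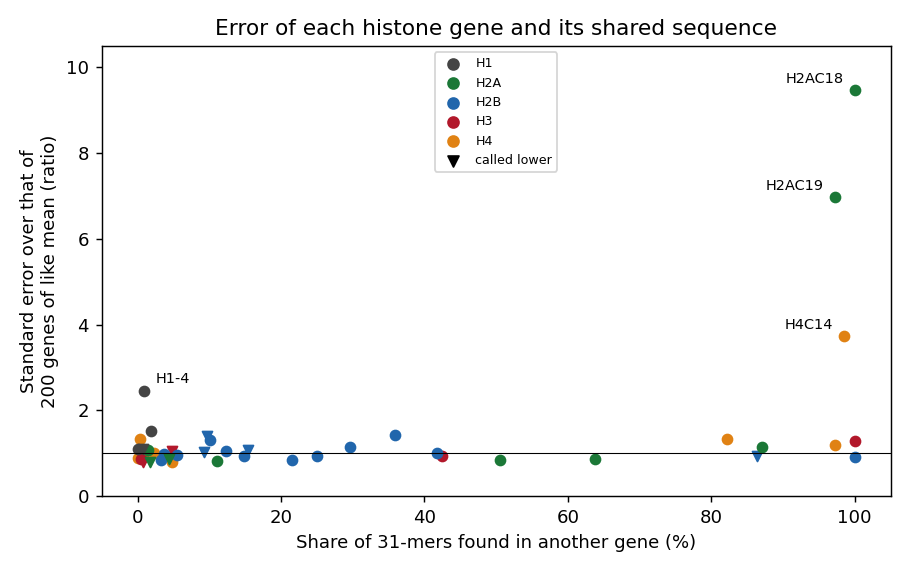
Standard error of each tested histone gene divided by the median of the 200 genes closest in mean, against the share of its 31-base words found in another gene. Most genes lie near 1 at any share, H2AC18, H2AC19 and H4C14 stand at 9.47, 6.98 and 3.74 with nearly all words shared, and H1-4 stands at 2.46 with 0.971% shared.

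Many H2A and H2B genes stand head to head and share the DNA between their starts. There were 11 such pairs with annotated starts 219 to 331 bases apart, 7 of them with both genes tested. In 2 of the 7 the H2A gene alone was lower, and in none were both called by the deposited Wald test. H2AC6 at -1.81 (SE 0.16) faced H2BC4 at -0.44 (SE 0.34) across 219 bases in the authors' deposited table, and the 95% intervals, -2.12 to -1.49 and -1.10 to 0.23, do not overlap. H2AC25 at -0.92 (SE 0.19) faced H2BC26 at -0.37 (SE 0.30) in the authors' deposited table, with overlapping intervals. The difference within a pair was not tested, since the table gives no covariance between genes. H2BC12 faced H2AC12, which had a mean of 0.777 and was not tested.

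The promoters of H2AC6 and H2BC12 are shown because these genes had the highest mean counts of their classes, not divided by length, and were both lower. Per kilobase of annotated exon, H2AC25, H2AC18 and H2AC19 stood above H2AC6. Promoter sequence came from RefSeq (GRCh38.p14) for 64 of 70 members, in windows of 250 bases before to 50 after the start, and was searched on both strands for the octamer ATTTGCAT bound by POU2F1, the TATA box TATAAA and CCAAT. The octamer was present in 14 of 18 H2B and 11 of 16 H2A promoters, no H1 or H4 promoter and 1 of 11 H3 promoters, against 1.77% of all 35116 promoters. TATAAA was present in 65.6% of members against 11.5% of all, and CCAAT in 84.4% against 34.6%, with 3 of 13 H4 promoters. Among lower genes the octamer was present in 3 of 10 and among tested genes that were not called in 13 of 29. The H3 match is H3C4, whose window in that table is the same as that of H2AC7, so that 1 stretch of DNA was counted in both classes. Head-to-head genes also share parts of these windows, so their promoters are not independent. Printed are the 150 bases before each start, with these motifs in capitals: the octamer begins 130 bases before the start of H2AC6, on the opposite strand, and 46 before that of H2BC12, and TATAAA begins 31 and 27 bases before.
H2AC6 (chr6:26124022-26124171, plus strand): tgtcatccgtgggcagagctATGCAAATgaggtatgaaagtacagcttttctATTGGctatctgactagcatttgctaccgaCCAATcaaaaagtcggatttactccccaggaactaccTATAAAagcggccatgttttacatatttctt
H2BC12 (chr6:27146859-27147008, minus strand): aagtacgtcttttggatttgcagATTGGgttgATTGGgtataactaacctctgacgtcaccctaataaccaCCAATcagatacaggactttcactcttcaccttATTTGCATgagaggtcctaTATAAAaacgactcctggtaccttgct

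Most members lie in the large cluster on chromosome 6. The 55 members there lie between 25726132 and 27893843 (GRCh38), a span of 2.17 Mb, and 9 of 31 tested were lower with a median log2 fold change of -0.51. The 15 other protein-coding genes tested within that span had 3 lower and 1 higher, against 14.8% and 14.7% of all tested genes. Their median was -0.30. They include ENSG00000282988, not called at -0.96 (SE 0.79), whose exon positions overlap those of the members H3C4 and H2AC7. On chromosome 1, 1 of 10 tested members was lower, and the median was -0.55.

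Replication-independent variants, which are made throughout the cell cycle and have ordinary poly(A) tails in most cases, went both ways. Of 9 tested, 3 were lower and 2 higher, against 14.8% and 14.7% of all tested genes, with a median log2 fold change of -0.09. All 9 had means from 72.0 upward, where 1925 of 8312 genes were lower and 1872 higher when adjusted among themselves. H2AZ2 and H2AZ1, which encode the H2A.Z variant, were at 0.68 (SE 0.04) and 0.42 (SE 0.11) in the authors' deposited table. H3-3B, which encodes H3.3, was the most abundant of the list at a mean of 12370, and was at -0.40 (SE 0.04) in the authors' deposited table. Alone, H3-3B had a mean above the sum of all replication-dependent members, 2542, counts that are not per length. How far the libraries captured mRNA without a poly(A) tail is not known, so these counts need not compare mRNA amounts.

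Genes of S phase pointed the other way from the replication-dependent histones. Of 28 tested, 10 were higher, against 14.7% of all tested genes, and 0 lower, against 14.8% (deposited Wald test; 0 lower also at an unadjusted p under 0.05), with a median log2 fold change of 0.32, led by RFC5 at 1.44 (SE 0.19), MCM3 at 1.12 (SE 0.17) and RFC3 at 0.77 (SE 0.29) in the authors' deposited table. RFC5 and RFC3 are subunits of the clamp loader and MCM3 of the replicative helicase.

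Among regulators of histone gene transcription, 5 of 9 tested were higher and 1 lower, with a median of 0.39, beside the same 14.7% and 14.8% over all genes. NPAT, the coactivator of histone genes that cyclin E and CDK2 phosphorylate, was at 2.00 (SE 0.63, adjusted p = 0.00655, Wald test) with a mean of 77.6 in the authors' deposited table. CDK2 was at 0.90 (SE 0.23) and CCNA2, cyclin A2, at 0.57 (SE 0.20) in the authors' deposited table. HINFP, a factor of H4 promoters, was the member that was lower, at -0.35 (SE 0.11) in the authors' deposited table.

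Factors of histone mRNA processing, translation and decay included 18 tested genes, with a median of -0.01. Of these 18, 1 was lower and 1 higher, against 14.8% and 14.7% of all tested genes. The lower one was ERI1, an exonuclease that trims and degrades the histone stem-loop end, at -0.75 (SE 0.05) with a mean of 4192 in the authors' deposited table. MIF4GD, which links SLBP to translation, was at 0.21 (SE 0.08), and SLBP itself was at -0.17 (SE 0.45, adjusted p = 0.842, Wald test) in the authors' deposited table. Histone chaperones were higher in 8 of 25 and lower in 1, against 14.7% and 14.8% of all tested genes, with a median of 0.18. HJURP, the chaperone of the centromeric H3 variant, was at 0.85 (SE 0.12), ANP32E, which removes H2A.Z, at 0.50 (SE 0.08), and HIRA, which deposits H3.3, at -0.52 (SE 0.07) in the authors' deposited table.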

How the data were processed

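The deposited table has a mean normalized count (a signal, per the file headers baseMean), a log2 fold change with its standard error on the log2 scale, a Wald statistic (a score) and p-values, raw and adjusted, as the authors deposited them. Per the submitters' processing notes, STAR and Salmon were used with hg38. The sources used here do not give the program behind the table, its model, its libraries or which group is the numerator. The labels' protocols name a SMARTer mRNA library kit. Exact depth per library is unknown, so no counting intervals are given.

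The deposited test was used for every call, at an adjusted p of 0.05 over 13957 genes. The adjusted p-values were recomputed by Benjamini-Hochberg to within 3.66e-07. Names came from an identifier table and, for IDs it lacks, from older names in RefSeq (H2AC18, H2AC19, H3C2 and H3C3). Types, exons and transcripts came from GENCODE 29. Members and lists were chosen with earlier results of these data known. Named genes are all members past the threshold, per class the 3 highest means and the extreme tested changes, members at 0 or without a row, and per related list up to 3 members past the threshold. A variant that this rule names is not reported here. Others were chosen after their values were seen. Intervals are log2 fold change plus or minus the 95% normal quantile times the standard error. Scripts were tested on simulated data. Python 3.11.15, numpy 2.4.6, pandas 2.3.3, scipy 1.17.1 and matplotlib 3.10.9 were used.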

Additional observations from a re-analysis of the deposited data

How the results depend on the processing

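The table holds no value per sample, so leaving out replicates, other normalizations and edgeR could not be run. No paired analysis was possible because the table has no columns per sample. The count of 10 lower histone genes fell to 3 when tested against a 1.5-fold change (H2AC6, H2BC5 and H3C6) and to 2 with errors widened 2.03 times to the spread of all statistics (H1-2 and H2AC6). Over all genes these settings called 2.31% and 4.27% lower. It was 7 at an adjusted p of 0.01 (11.3% of all genes), 9 of 63 without the filter on low values (8.99%) and 7 of 13 among means of at least 72.0. Adjusting over protein-coding genes lost none of the 10, centring could change nothing because the median of all genes is 0, and leaving out H2BC12L gave 10. No histone gene was higher under any of these settings. Against a 1.5-fold change the variants had 1 lower and 0 higher, S-phase genes 2 higher, the processing list 0 higher, and the transcription and chaperone lists 0 lower and 0 higher. With widened errors the variants had 1 higher, the processing list 0 higher, the transcription list 0 lower and 0 higher, chaperones 4 higher and S-phase genes 5 higher. At 0.01 the transcription list had 0 lower and 3 higher and the processing list 0 higher, as also without the filter. The change of H3 moved to -1.31 as a weighted mean. That of H1, -0.02 in the report, was 0.21 over all members, -0.49 at means of at least 72.0 and -0.78 as a weighted mean. Median levels moved to 73.3 for H2B and 35.6 for H4 per kilobase of coding sequence. The cause of these moves was not tested.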

Other observations

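Of 12 histone pseudogenes that the name rule left out, 2 were tested and 1 passed. H2BC27P had a log2 change of 2.06 (SE 0.84, adjusted p = 0.0480, Wald test) with a mean of 9.63 in the authors' deposited table. It was chosen after its values were seen.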
